A study of Danio rerio with 8 samples.

Results

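The 10 genes described here are receptors, ligands and targets of the Notch pathway: the receptor genes notch1a, notch1b, notch2 and notch3, the Jagged ligand genes jag1a, jag1b and jag2b, and the target genes her6, her9 and hey1. They were picked by symbol from a deposited table of 32057 zebrafish (Danio rerio) genes, in which each symbol had a single row. The RNA came from chondrocytes, the cells that build cartilage, collected by cell sorting of whole larvae 3 days after fertilisation. The 8 libraries form 2 groups of 4. Fish of the WT group carried the transgenes Tg(sox10:EGFP) and Tg(col2a1a:mcherry), and fish of the kat6a group carried the same reporters together with a deficiency of kat6a, a histone acetyltransferase gene. The reporters mark neural crest derivatives and cartilage, and cells positive for both were collected. All larvae were raised at 28.5 degrees Celsius with 0.003% PTU, which blocks pigment formation. The sources used here do not give the lesion in kat6a, the number of larvae behind a library or whether WT fish were siblings. The series design asks how gene expression differs between WT and kat6a-deficient chondrocytes.

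Notch signalling passes between touching cells. A Delta or Jagged ligand on a cell binds a Notch receptor on its neighbour, proteases of the Adam family and then gamma-secretase cut the receptor, and the freed intracellular part enters the nucleus and joins the DNA-binding protein Rbpj to switch on genes such as those of the hairy (her) and hey families, which encode transcriptional repressors. In the zebrafish face jag1b and notch2 are known for setting dorsal identity in the skeleton of the pharyngeal arches. In the mouse, Notch signalling through Rbpj is known to hold back the differentiation of mesenchymal progenitors into chondrocytes.

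In these chondrocytes notch2 made up most of the receptor transcript, the 3 target genes stood above it, and the 3 Jagged genes stayed at or below 1.43 FPKM in every library. The Jagged means were above those of 53.3% to 67.2% of all 32057 genes in the table, of which only 19444 were above 0 in any library. None of the 10 genes was called different between WT and kat6a. Values are FPKM, fragments scaled by transcript length and library, which allows levels of different genes to be set side by side. Sequencing depth is unknown from FPKM, so no counting interval can be given. In bulk RNA, fewer cells of a type and less RNA per cell cannot be told apart.

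The sort held cartilage cells by its markers, and it was not free of others. All 12 chondrocyte markers were tested and none was called. Of the 12, 11 had a log2 fold change (kat6a over WT) above 0, while 69.5% of all tested genes were below 0. Above 0 were 12 after median-ratio and after upper-quartile scaling, and 9 after quantile normalisation. By mean FPKM, kat6a ran from 90.2% of WT for hapln1a to 122.5% for snorc. For col2a1a, the main cartilage collagen gene, mean FPKM was 16790 ± 5324 (SD) over the 4 WT libraries. Over the 4 kat6a libraries it was 16740 ± 4087. The libraries numbered 1 stood apart, where chondrocyte markers summed to 30910 FPKM (WT) and 38230 FPKM (kat6a), while the other 6 libraries gave 59070 to 66460. Not every marker followed that sum. In the libraries numbered 1 col2a1a was low, at 8994 (WT) and 10780 (kat6a) FPKM against 17360 to 20540 in the other 6. By contrast acana was high there, at 2389 and 2127 FPKM against 1240 to 1636. So was hapln1a, at 320.6 and 234.3 FPKM against 35.2 to 74.3. Genes listed above 0 numbered 13483 to 16108 in WT and 11010 to 15351 in kat6a, with the lowest count in kat6a replicate 4. The transcript of kat6a itself was 74.9% of the WT mean, with a log2 fold change of -0.46 ± 0.36 (SE) and limma adjusted p = 0.958, so it does not check the labels.

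**Figure D1:**
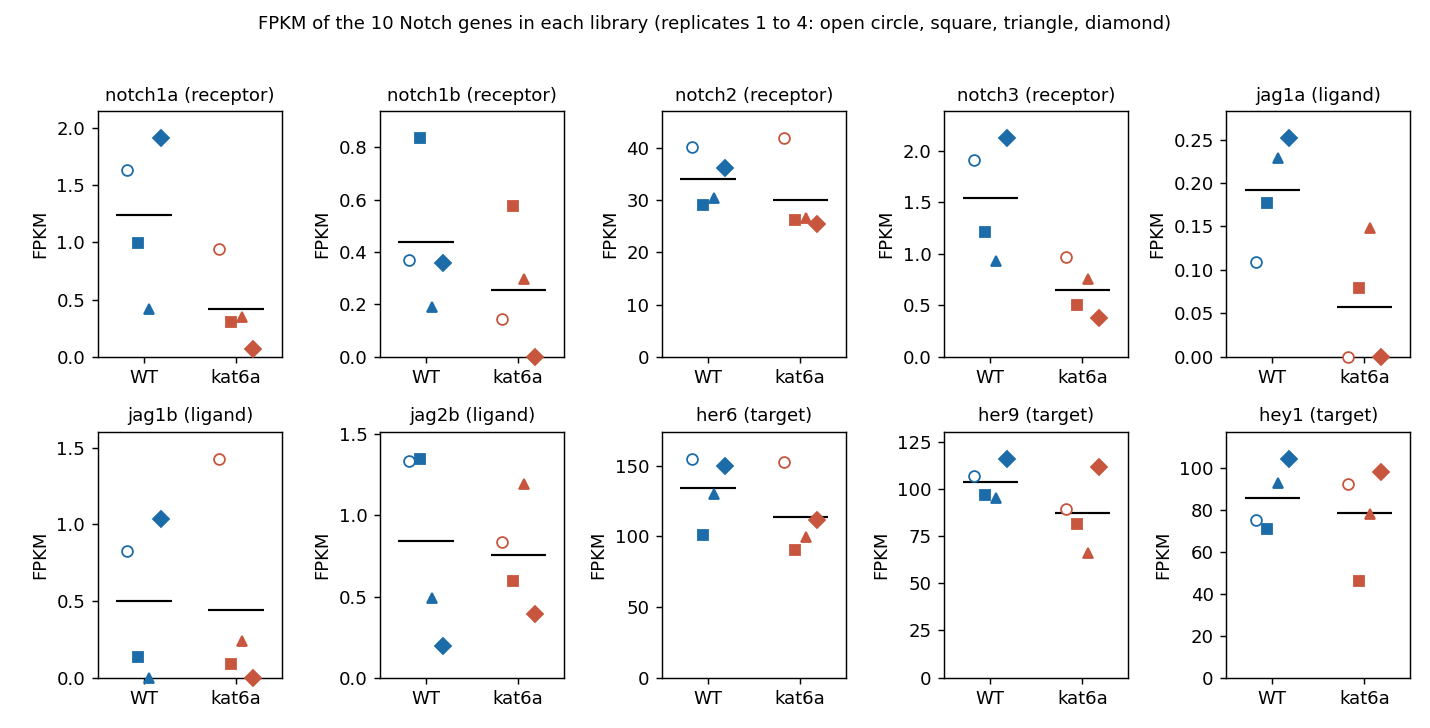
FPKM of each of the 10 genes (vertical axes, linear and starting at 0) in 4 WT and 4 kat6a libraries; symbols give the replicate number and bars the group means. The groups overlap for every gene, and 6 of the panels reach no higher than 2.13 FPKM.

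The receptor genes differed widely in level. For notch2 the WT libraries, in the order of replicates 1 to 4 as throughout, gave 40.1, 29.1, 30.4 and 36.1 FPKM, and the kat6a libraries gave 41.9, 26.1, 26.5 and 25.3. The kat6a library numbered 1 was the highest of all 8, the other 3 kat6a libraries lay below every WT library, and the groups overlapped through that library alone. The WT mean was 33.9 ± 5.11 FPKM and the kat6a mean 29.97 ± 7.97 (SD, n = 4), and notch2 stood above 96.5% of all genes in the table by its mean over the libraries. Of the summed FPKM of the 4 receptors, notch2 took between 89.1% and 98.3% in each library, with a median of 94.96%. The difference between groups was a log2 fold change (kat6a over WT, computed on log2(FPKM + 1)) of -0.19 ± 0.22 (SE), with a 95% interval of -0.68 to 0.29 and limma adjusted p = 0.976.

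The receptor gene notch3, known in vertebrates for its role in the mural cells of blood vessels, was the next in level. Its 4 WT values were 1.91, 1.21, 0.935 and 2.13 FPKM, and its 4 kat6a values 0.966, 0.502, 0.759 and 0.380. WT replicate 3 lay below kat6a replicate 1, and apart from that pair of libraries every WT value was above every kat6a value. In FPKM, kat6a reached 42.1% of WT by means, at 0.652 ± 0.262 against 1.55 ± 0.564 (SD, n = 4), and in 4 of 4 pairs of libraries with the same number the kat6a library was the lower. Limma gave a log2 fold change of -0.61 ± 0.28 (SE) with a 95% interval of -1.23 to 0.01, a limma unadjusted p of 0.0533 and a limma adjusted p of 0.958. In the authors' deposited table the fold of WT over kat6a for notch3 was 1.38, with a p of 0.0213 and a q-value of 0.877. That fold is not the ratio of the mean FPKM values above, so the measures differ.

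The receptor gene notch1a, widely used in neural progenitors, had values of the same kind. The WT libraries held 1.63, 0.994, 0.421 and 1.91 FPKM, the kat6a libraries 0.942, 0.308, 0.352 and 0.0684. The groups overlapped, because kat6a replicate 1 lay above WT replicate 3, and again the kat6a library was the lower in 4 of 4 pairs. By mean FPKM kat6a stood at 33.7% of WT, and the log2 fold change was -0.64 ± 0.32 (SE), with a 95% interval of -1.36 to 0.08 and limma adjusted p = 0.958. Across the 8 libraries notch1a and notch3 varied together, with a Pearson correlation of 0.960 on the log2(FPKM + 1) scale after the group means were removed. The libraries share depth and makeup, so this is a description. Other genes varied as closely: 82 tested genes reached 0.9 with notch1a and 81 with notch3, the nearest with a gene name being pld2, at 0.984, for notch1a.

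The paralog notch1b, known in zebrafish for its expression in endothelium, was lower still. WT libraries gave 0.368, 0.837, 0.191 and 0.360 FPKM and kat6a libraries 0.146, 0.576, 0.298 and 0. The highest value of each group was in the libraries numbered 2, unlike the other receptors. With a mean of 0.347 over 8 libraries notch1b fell under the filter, a mean of at least 0.5 FPKM, and was not tested. Because exact 0 values in this table can be failed estimates, no mean by group is given for genes with such values. Without a filter its log2 fold change came to -0.20 ± 0.19 (SE), at a limma adjusted p of 0.861.

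**Figure D2:**
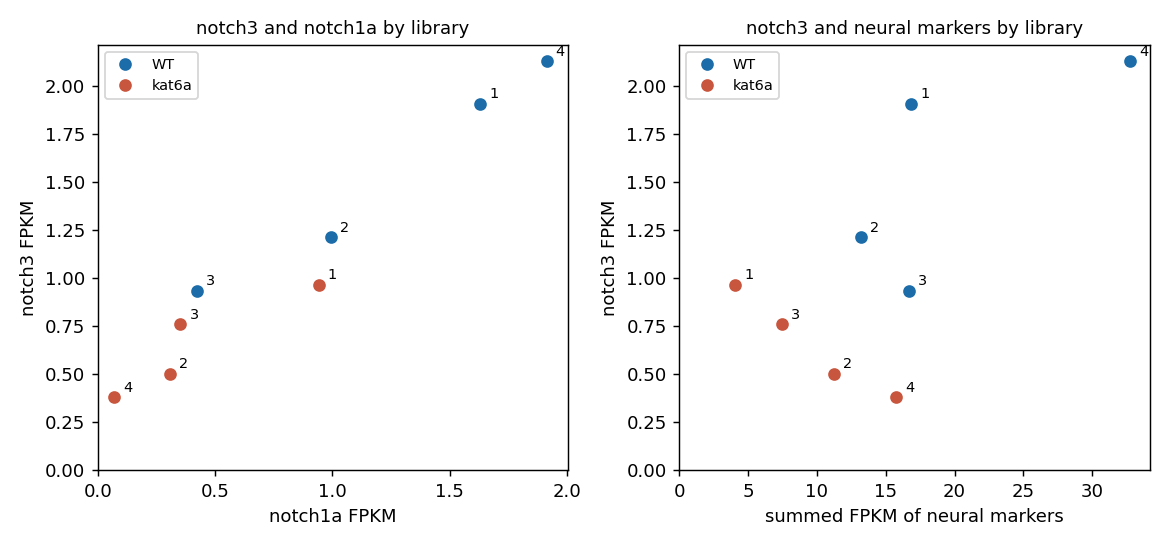
FPKM of notch3 (vertical) against FPKM of notch1a (left) and against the summed FPKM of 16 table rows of neural marker genes (right), a point per library with its replicate number. WT replicates 1 and 4 are the highest for both receptors and kat6a replicate 4 is the lowest. WT replicate 4 also has the highest neural sum, and kat6a replicate 4 does not have the lowest.

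Both receptor genes are used by cells other than chondrocytes, so markers of such cells are given beside them. Markers of neural progenitors and neurons summed to 13.2 to 32.7 FPKM in the WT libraries, against 4.05 to 15.8 for kat6a. In the WT libraries and in kat6a replicates 2 and 4 most of that sum was fabp7a, a radial glia gene. Its values were 10.3, 8.96, 12.9 and 24.0 FPKM for WT and 0, 8.30, 3.37 and 11.8 FPKM for kat6a. The lowest sum fell in the library that lists fabp7a at 0. The neuronal gene elavl3 had a log2 fold change of 0.06 ± 0.31 (SE), while neurog1 and ascl1b were at 0 in every library. Of 5 neural markers tested, 4 had a log2 fold change below 0 (2 after quantile normalisation) and 0 were called. Of all tested genes 69.5% were below 0 as deposited and 47.7% after quantile normalisation. That share was 55.0% after median-ratio and 49.75% after upper-quartile scaling. The counts for other cell types below stand beside the same shares.

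Endothelial markers summed to 33.9 to 47.6 FPKM in WT and 25.6 to 45.1 in kat6a, of which fli1a, also expressed by neural crest cells, took 17.1 to 39.2 and esama 6.76 to 12.8. The endothelial sum was highest in WT replicates 1 and 4 and lowest in kat6a replicate 4, as notch3 and notch1a were. Most of that sum was fli1a, itself highest in WT replicate 1 (39.2 FPKM) and lowest in kat6a replicate 4 (17.1). Whether fli1a marks endothelium in this sort was not tested, so the endothelial sum is no measure of such cells. The junction genes cdh5 and pecam1 reached at most 0.484 and 0.121 FPKM, both in WT replicate 4, and were at 0 in all 4 kat6a libraries. In WT, cdh5 was also at 0 in replicates 1 and 3, and pecam1 in replicates 1, 2 and 3. By contrast kdr was listed above 0 in 3 kat6a libraries, at 0.457 to 0.669 FPKM, and sox7 in 3, at 0.477 to 0.540. All 3 tested markers of the list had a log2 fold change below 0 (2 under each scaling), and 0 were called. Markers of mural cells summed to 317.7 to 691.8 FPKM in WT libraries and 292.9 to 665.8 in kat6a libraries. Of 4 tested mural markers 3 had a log2 fold change below 0 and 0 were called. The number below 0 was 2 after median-ratio scaling, 3 after quantile normalisation and 1 after upper-quartile scaling. Nearly all of the sum came from cspg4, foxc1b and pdgfrb. Their log2 fold changes were -0.131 ± 0.463, -0.215 ± 0.291 and 0.366 ± 0.278 (SE). Whether these genes mark mural cells in this sort was not tested, so the sum is no measure of such cells. The contractile gene acta2 gave 2.103, 0.767, 0 and 2.95 FPKM for WT and 0, 0.210, 0.903 and 0.913 FPKM for kat6a. Of the rest, tagln was above 0 only in WT replicates 1 and 2, and abcc9 and kcne4 were at 0 throughout.

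WT replicate 4, the library with the highest notch3 and notch1a, also had the highest neural sum, at 32.7 FPKM. Its epidermal sum was the highest too, at 572.7 FPKM against 52.5 to 144.2 in the other 7. All 9 tested epidermal markers had a log2 fold change below 0 (7 under each scaling) with 0 called. Lens and retina markers summed to 68.6 to 201.4 FPKM in WT and 2.91 to 29.1 in kat6a, with 2 of 10 tested called lower. Muscle markers went the other way, with sums of 726.8 to 1122 FPKM in WT libraries and 984.5 to 1689 in kat6a libraries, 12 of 14 tested above 0 (13 or 14 under each scaling) and 0 called. The part of such cells in the notch1a and notch3 values was not tested.

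Little ligand transcript was found. The jag2b gene was the highest of the Jagged genes by mean, at 1.34, 1.35, 0.494 and 0.195 FPKM in the WT libraries and 0.838, 0.596, 1.19 and 0.394 in those of kat6a. The values of both groups covered much the same range, with WT libraries at both ends. Means were 0.844 ± 0.590 FPKM for WT and 0.755 ± 0.344 FPKM for kat6a (SD, n = 4), and the log2 fold change came to -0.03 ± 0.32 (SE), with a 95% interval of -0.74 to 0.67 and limma adjusted p = 0.998. Its direction turned in 11 of 17 alternative fits.

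For jag1b, the Jagged gene with the known role in the face, the WT values were 0.822, 0.132, 0 and 1.03 FPKM and the kat6a values 1.43, 0.0911, 0.236 and 0. Both libraries numbered 1 were high, together with WT replicate 4, and the remaining 5 lay at or below 0.236. Its mean over the libraries was 0.468 FPKM, so it was not tested, and without a filter its log2 fold change came to -0.09 ± 0.34 (SE), at a limma adjusted p of 0.961.

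The lowest of the 10 was jag1a, at 0.109, 0.177, 0.229 and 0.252 FPKM across the WT libraries and 0, 0.0797, 0.148 and 0 across the kat6a libraries. The kat6a library was the lower in 4 of 4 pairs, as in 16.3% of tested genes, while kat6a replicate 3 lay above WT replicate 1. In 2 of those pairs the kat6a value is an exact 0, which can be a failed estimate. Without a filter jag1a had a log2 fold change of -0.17 ± 0.072 (SE), a limma unadjusted p of 0.0403 and a limma adjusted p of 0.861, and it was the only member of 10 under an unadjusted p of 0.05, where 823 of 19444 genes were. In the authors' deposited table its fold of WT over kat6a was 1.14, with a p of 0.0364 and a q-value of 0.877. Summed over the 3 Jagged genes, FPKM was 0.394 to 2.27 in a library, or 0.0156 to 0.0594 of the notch2 value of that library.

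The other ligands were as scarce. The fourth Jagged gene, jag2a, was listed at 0 in 7 of 8 libraries and at 0.0704 FPKM in WT replicate 1. Of the 5 Delta genes dlc passed the filter, with WT values of 0.656, 0.229, 0.287 and 1.91 FPKM, kat6a values of 0.601, 0, 0.151 and 0.774 FPKM and a limma adjusted p of 0.976. The endothelial ligand gene dll4 was at most 0.679 FPKM, again in WT replicate 4. It was 0 in WT replicates 2 and 3 and in 3 kat6a libraries. For dlb the WT libraries gave 0.143, 0.0525, 0.226 and 0.294 FPKM, and all 4 kat6a libraries listed it at 0. It was not tested, and it was chosen for mention after its values were seen.

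**Figure D3:**
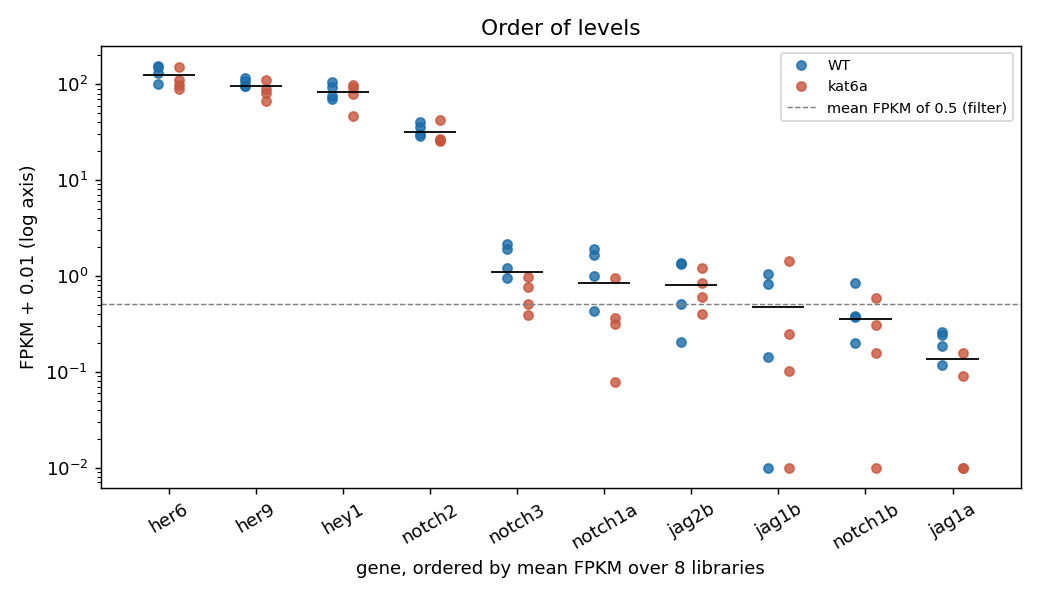
FPKM + 0.01 on a log axis for the 10 genes in order of mean FPKM, a point per library and a bar at the mean over 8 libraries; the dashed line is the filter. The 3 target genes and notch2 stand apart from the other 6 genes, with a ratio of means of 29.1 between notch2 and notch3.

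The target genes were high. The gene her6, the counterpart of mammalian Hes1, reached 155.0, 101.1, 130.2 and 150.0 FPKM in the WT libraries, and 152.6, 90.2, 99.4 and 112 for kat6a. WT replicate 2 and the kat6a libraries 2, 3 and 4 were the low ones, and the groups overlapped widely. The means were 134 ± 24.5 and 113 ± 27.5 FPKM (SD, n = 4), above 99.0% of all genes, and the kat6a library was lower in 4 of 4 pairs. On the log2(FPKM + 1) scale the fold change was -0.25 ± 0.21 (SE), with a 95% interval of -0.72 to 0.22 and limma adjusted p = 0.958. It was -0.09 after median-ratio and -0.03 after upper-quartile scaling.

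Its relative her9, the counterpart of Hes4, gave 106.9, 96.6, 94.9 and 116 FPKM among WT libraries, and 89.2, 81.3, 66.1 and 111 FPKM among kat6a libraries. All kat6a libraries but replicate 4 lay below every WT library. The kat6a library was lower in 4 of 4 pairs, and the means were 104 ± 9.81 and 87.0 ± 18.9 FPKM (SD, n = 4). For her9 the log2 fold change was -0.27 ± 0.19 (SE), with a 95% interval of -0.69 to 0.15 and limma adjusted p = 0.958, and it was -0.11 after median-ratio and -0.05 after upper-quartile scaling. With the replicate block (the replicate number as a term of the fit) its unadjusted p was 0.0407 and its adjusted p 0.473 in limma, in a fit that placed 10.4% of tested genes under an unadjusted p of 0.05.

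The third target, hey1, had WT values of 75.1, 70.9, 92.9 and 105 FPKM and kat6a values of 92.4, 46.3, 78.3 and 98.1. The lowest library was kat6a replicate 2, and the other 3 kat6a libraries lay within the WT range. The means were 85.9 ± 15.7 and 78.8 ± 23.2 FPKM (SD, n = 4), with a log2 fold change of -0.16 ± 0.25 (SE), a 95% interval of -0.72 to 0.40 and limma adjusted p = 0.987. Without kat6a replicate 2 the value was 0.07, and under upper-quartile scaling 0.06, so its direction is not settled.

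The order of levels was her6, her9, hey1, notch2, notch3, notch1a, jag2b, jag1b, notch1b and jag1a. Between hey1 and notch2, and between notch2 and notch3, the ranges over 8 libraries did not touch. All other neighbours in the order had overlapping ranges, although her6 was above her9, and notch3 above notch1a, in 8 of 8 libraries. The other overlapping neighbours changed places from library to library: her9 was above hey1, jag2b above jag1b and notch1b above jag1a in 6 of 8, while notch1a was above jag2b, and jag1b above notch1b, in 3 of 8. The ratio of her6 to her9 within a library was 1.05 to 1.45 in WT and 1.003 to 1.71 in kat6a, and that of her9 to hey1 was 1.02 to 1.42 and 0.844 to 1.75. The ratio of notch2 to the other 3 receptors together was 8.21 to 19.6 in WT and 18.9 to 56.4 in kat6a, overlapping only through WT replicate 3. The upper limit of 56.4 was kat6a replicate 4 alone, the library with notch1b at 0 and the fewest genes above 0, and the other 3 kat6a libraries gave 18.9 to 20.4. These ratios were not tested. They rest on the low values of notch1a, notch1b and notch3, so they are no separate difference between groups.

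Both notch2 and her6 were highest in the libraries numbered 1, which 28.5% of tested genes were. For notch2 the mean was 41.0 FPKM there and 28.9 in the other 6, and for her6 it was 153.8 and 113.8. These genes varied together over the 8 libraries, at a Pearson correlation of 0.885 with group means removed, while notch2 had 0.295 with hey1 and 0.201 with her9. At 0.9 or more stood 639 tested genes with notch2 and 229 with her6. Nearest to her6 was zcchc24, at 0.991, and to hey1 nck1a, at 0.984. Without the pair numbered 1 the log2 fold change was -0.28 for notch2, -0.32 for her6 and -0.31 for hey1.

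**Figure D4:**
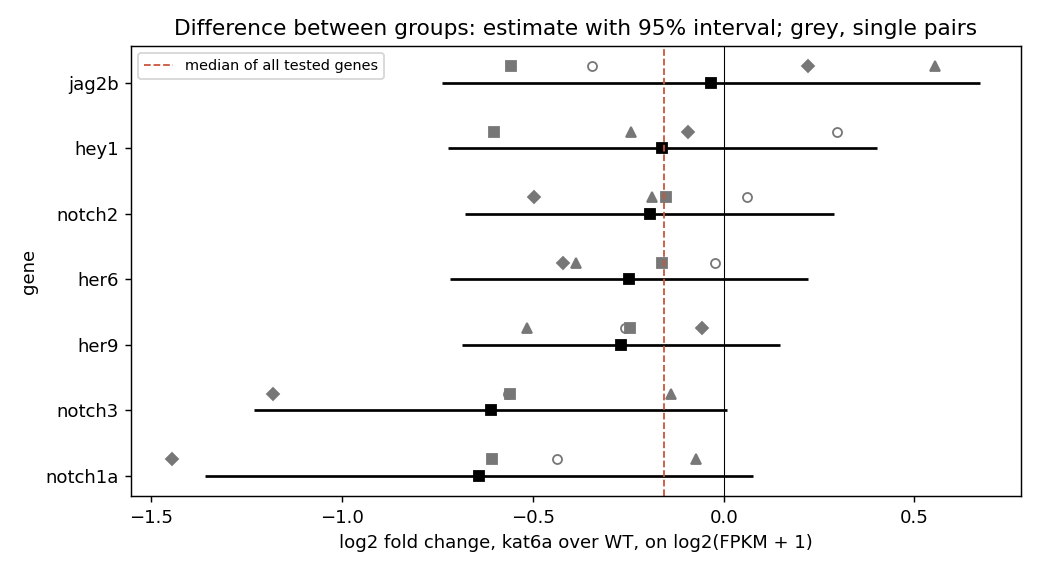
Log2 fold change of kat6a over WT (horizontal) for the 7 tested genes, with its 95% interval (black) and the difference within each pair of same-numbered libraries (grey, symbols by replicate number as in the plot of values by library); the dashed line is the median of all tested genes, -0.16. Each interval spans 0.

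Of the 10 genes 7 passed the filter, and limma called 0 of them at an adjusted p under 0.05, where 0.017% of the 11763 tested genes were called, 2 in all. At an unadjusted p under 0.05 stood 0 of the 7, with 4.57% of tested genes there. The groups overlapped for all 10, while 2.57% of tested genes lay without overlap on the lower side and 0.561% on the higher side. The log2 fold change was below 0 for each of the 7 tested, as it was for 69.5% of tested genes. Being lower in 4 of 4 pairs held for notch1a, notch3, her6 and her9 among the 7, a pattern found in 16.3% of tested genes. The median log2 fold change was -0.25 over the 7, beside -0.16 over all tested genes, and without a filter -0.20 over the 10, beside -0.09 over all. After median-ratio scaling it was -0.09 beside -0.04, after quantile normalisation -0.24 beside 0.02, and after upper-quartile scaling -0.03 beside 0.00. Under upper-quartile scaling notch2 turned to 0.02. The values of notch1a and notch3 stayed below 0 in every fit, from -1.48 to -0.33 and from -1.13 to -0.35, and the lowest unadjusted limma p in any of these fits was 0.0311 and 0.0415.

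Other genes of the pathway were described from 7 lists holding 82 symbols, of which 75 were found in the table. Some symbols are other names of the same row and some have more than 1 row, so that they filled 74 rows, 52 of which passed the filter. Limma called 0 of the 52 in either direction and 0 had an unadjusted p under 0.05. The log2 fold change was below 0 for 43 and above 0 for 9, or 82.7% below, beside 69.5% of all tested genes, and the median was -0.24. Those shares were 67.3% beside 55.0% after median-ratio scaling, 59.6% beside 47.7% after quantile normalisation and 59.6% beside 49.7% after upper-quartile scaling, so the counts by list that follow hold for FPKM as deposited.

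Genes of the machinery that makes, cuts and reads the receptor ranged from low to moderate levels. Among those named below, means over the 8 libraries ran from 0.574 FPKM for lfng to 33.2 for furina. In the sending cell, mib1, whose ubiquitin ligase drives ligand uptake, averaged 9.64 ± 3.76 FPKM over WT and 7.94 ± 2.93 over kat6a libraries (SD, n = 4). Among 10 tested cleavage genes 8 had a log2 fold change below 0. The surface protease gene adam10b, which makes the first cut after ligand binding, gave WT values of 17.5, 12.1, 11.5 and 6.40 FPKM and kat6a values of 7.69, 7.51, 9.82 and 5.999. It was lower in 4 of 4 pairs, as 16.3% of tested genes were. The log2 fold change of adam10b was -0.50 ± 0.30 (SE), with limma adjusted p = 0.958. A related protease gene, adam17b, had -0.61 ± 0.31 with the same adjusted p. The gamma-secretase subunit gene psen2 had 0.19 ± 0.26, with a WT mean of 10.5 ± 2.70 FPKM and a kat6a mean of 12.1 ± 3.07 (SD, n = 4). Highest of the list was furina, a convertase gene, at 35.9 ± 8.78 and 30.6 ± 16.3 FPKM.

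Genes of the sugar-adding enzymes that tune the receptor gave 3 of 4 tested below 0. The Fringe gene lfng, with WT values of 1.13, 0.540, 0.460 and 1.47 FPKM and kat6a values of 0, 0.443, 0.547 and 0, had the smallest p of all 52, a limma unadjusted p of 0.0710, and was listed at 0 in 2 kat6a libraries. The glucosyltransferase gene poglut1 had a log2 fold change of 0.23 ± 0.31 (SE). In the nuclear complex 12 of 13 tested genes were below 0. Of these hdac1, a deacetylase gene of the repressor side, had a WT mean of 19.5 ± 3.71 FPKM and a kat6a mean of 18.6 ± 4.89 (SD, n = 4). The coactivator gene ep300a was lower in 4 of 4 pairs, with a log2 fold change of -0.46 ± 0.30 (SE) and limma adjusted p = 0.958. Median log2 fold changes were -0.24 in the nuclear complex, -0.24 in cleavage and -0.41 in glycosylation.

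Among genes that restrain the pathway, nrarpa, a feedback inhibitor gene switched on by Notch, was the highest, with WT values of 22.7, 10.04, 10.99 and 17.4 FPKM and kat6a values of 18.7, 8.37, 7.87 and 13.4. It was lower in 4 of 4 pairs, as 16.3% of tested genes were, and its log2 fold change was -0.32 ± 0.34 (SE), at a limma adjusted p of 0.970. Its paralog nrarpb, at 0.153, 1.14, 0.0550 and 0.446 FPKM for WT and 1.70, 0.264, 1.11 and 1.13 FPKM for kat6a, had 0.51 ± 0.34, the largest value above 0 among the 52. The ubiquitin ligase genes fbxw7 and dtx4 had -0.37 ± 0.32 and -0.42 ± 0.38.

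Most other hairy and hey genes were low or listed at 0. Of 23 rows 9 were at 0 in every library and 11 were tested, of which 9 had a log2 fold change below 0. Highest by mean was hey2, with means of 5.36 ± 2.33 FPKM for WT and 4.98 ± 1.15 FPKM for kat6a (SD, n = 4), far under the level of hey1. For her11 the libraries numbered 1 gave 10.3 FPKM (WT) and 7.03 FPKM (kat6a), and the values were 0 to 1.09 in the other 6 libraries. The 2 rows named her15.1 are close copies whose reads may be shared, so their values are uncertain, and they differed. The row ENSDARG00000054562 gave WT values of 1.124, 0.902, 0.875 and 2.88 FPKM and kat6a values of 0.634, 0.256, 0.690 and 0.579, without overlap, with a log2 fold change of -0.61 ± 0.31 (SE) and limma adjusted p = 0.958. In the row ENSDARG00000054560 the groups overlapped, at 0.624, 0.536, 0.511 and 1.58 FPKM for WT and 0.959, 0.253, 0.396 and 1.41 FPKM for kat6a, and the log2 fold change was -0.06 ± 0.32. Lying without overlap on the lower side was found in 2.57% of tested genes.

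**Figure D5:**
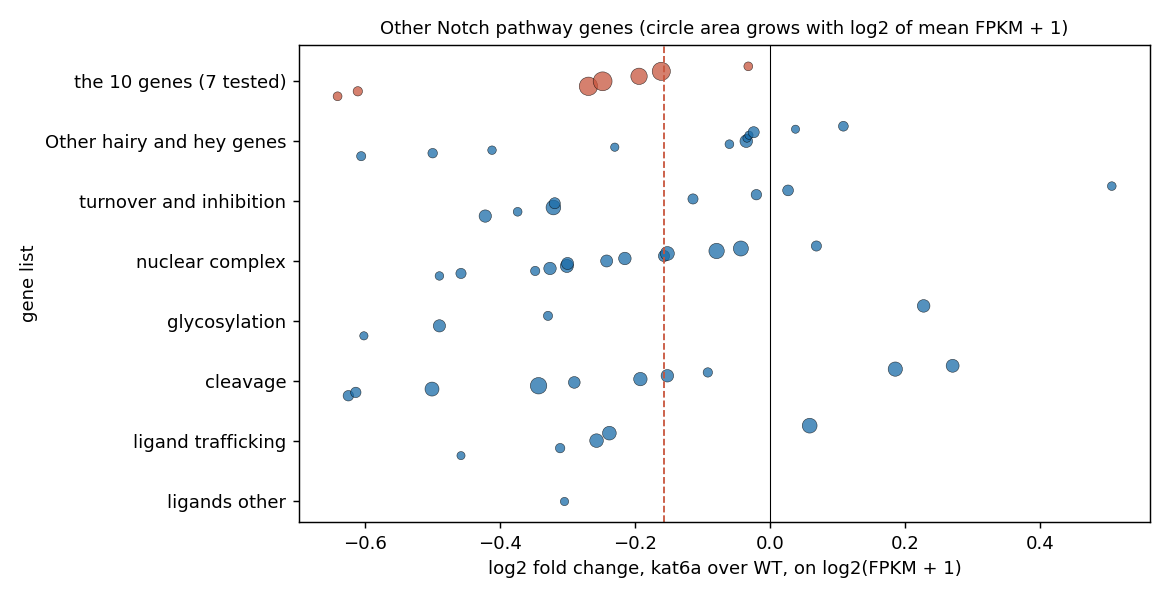
Log2 fold change of kat6a over WT (horizontal) for 52 tested pathway genes by list and for the 7 tested members (top row); circle area grows with the mean level, and the dashed line is the median of all tested genes. All circles but nrarpb, at 0.51, lie between -0.64 and 0.27, and none was called.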

How the data were processed

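The authors deposited 1 table of FPKM values per gene and library; HISAT2, StringTie and the build GRCz10 are named without versions in the submitters' processing notes. Per the file headers it also gives the authors' p-value, q-value and fold for each gene. By its values the fold is a ratio of WT over kat6a, but for notch3 and jag1a it is not the ratio of mean FPKM. The sources used here do not name the test. Columns were tied to samples by library index, and 0 were left untied. WT replicate 4 is called WT3 in its library name, and its title was followed. The test was limma (version 3.58.1, under R 4.3.3) with a trend on the mean level, two-sided, on log2(FPKM + 1) for the 11763 genes with a mean of at least 0.5 FPKM, with Benjamini-Hochberg adjustment over all of them and calls at 0.05. The fit was tried on simulated data with noise independent between libraries and planted changes larger than those estimated for the members. That trial does not show how well changes of the members' size would be found. Fold changes understate the change of low genes. The 18 alternatives changed the pseudocount to 0.1, the filter, the scaling, the weights or the libraries, or added the replicate number to the model, alone or with median-ratio scaling. The labels state no pairing, and the pairs here are libraries with the same number in their titles. Deviations from the group mean correlated between same-numbered libraries at 0.589, 0.347, 0.127 and 0.151 over tested genes. Correlations between libraries of different numbers were not computed, so these values do not establish the pairs. The series design calls the libraries biological replicates. Members and lists were chosen with earlier results of these data known. Named are all members, kat6a, and from each list the 2 genes with the smallest p and the 2 highest by mean, with omissions for length and 1 gene not reported here, which stayed in every test and count; others were named after their values were seen, as markers or examples. Coordinates and sequences were not used here.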

Additional observations from a re-analysis of the deposited data

Results flagged for a closer look

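In groups of 4, a library was marked where its gap to the nearest other exceeded Dixon's 95% critical value as a share of the group's range, which chance gives in about 1 in 20 groups; 72 groups were checked. Among the members, kat6a replicate 1 stood apart for notch2, at 41.9 FPKM against 25.3 to 26.5 in the other kat6a libraries, and for jag1b, at 1.43 against 0 to 0.236. For her11 the libraries numbered 1 stood apart in both groups, at 10.3 FPKM in WT against 0 to 0.884, and at 7.03 in kat6a against 0 to 1.09. WT replicate 4 stood apart for both her15.1 rows, at 2.88 FPKM against 0.875 to 1.124 and at 1.58 against 0.511 to 0.624. Why these libraries stood apart was not tested.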

How the results depend on the processing

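No member and no other pathway gene was called in any of the 18 alternatives; the smallest limma adjusted p was 0.473 for a member and 0.480 for a pathway gene. Over all genes the number called was 2. It was 1 with a pseudocount of 0.1 and with the replicate block, 0 without a filter, under each of the 3 scalings and with the block and median-ratio scaling, 14 with array weights (0 of them members), 4 without the pair numbered 1, and 0 to 5 with each library left out; the causes were not tested. The blocked fit gave the members the same fold changes and placed 1 of 7, her9, under an unadjusted p of 0.05, where 10.4% of tested genes were. The median over the tested members was -0.029 under upper-quartile scaling against -0.25 as deposited, and -0.36 to -0.14 with each library left out. Of 124 member values 14 turned direction. For jag2b the value became 0.048 with a pseudocount of 0.1, 0.033 with median-ratio scaling with or without the block, 0.24 with quantile normalisation, 0.055 with upper-quartile scaling, 0.036 with array weights and 0.073 without the pair numbered 1, and it ran from -0.22 to 0.10 with each library left out. For hey1 it was 0.056 and for notch2 0.02 under upper-quartile scaling, and hey1 ran from -0.28 to 0.071 with each library left out. The 3 members under the filter rest on values near 0 in a table whose depth is unknown.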
